A study of Bos taurus with 48 samples.

Results

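Of the 25669 genes in a table of read counts from bovine blood leukocytes, 4 that encode transporters of neurotransmitters, their precursors or amino acids are described here in all 48 libraries. They are a selection from a larger group of such genes, chosen by identifier, as SLC6A2 (ENSBTAG00000003353), SLC6A5 (ENSBTAG00000014300), SLC6A15 (ENSBTAG00000018432) and SLC5A7 (ENSBTAG00000004352). Total leukocytes came from 12 intact male beef calves, which the labels give as a Continental breed and the study as Simmental. All were born in spring, had been at grass with their dams, were vaccinated against respiratory viruses before the trial and were housed indoors on d 0. The 6 weaned calves were separated from the dam at housing and penned with other weaned calves, whereas the 6 control calves were housed with their dam and not weaned. Blood was drawn from every calf on d 0, ahead of the move, and on d 1, 2 and 7, with 1 library per draw, which makes 8 groups of 6 libraries. The control calves were therefore also moved, housed and sampled, and the groups differ in pen mates as well as in weaning.

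The SLC6 family moves small molecules into cells by coupling them to the sodium gradient, in most members together with chloride. SLC6A2 is the noradrenaline transporter, which clears the transmitter after its release from sympathetic nerve endings, and SLC6A5 is the neuronal glycine transporter GlyT2, which loads inhibitory nerve terminals with glycine. SLC6A15 carries neutral amino acids such as leucine, isoleucine, valine and proline and is known mainly from brain. SLC5A7, of the sodium-coupled SLC5 family, is the high-affinity choline transporter that supplies cholinergic nerve terminals for the synthesis of acetylcholine. All of them stood among the genes that the study itself picked as changed in these same samples, so their directions after weaning are not independent evidence. These roles were described in the nervous system, and leukocytes carry receptors for noradrenaline and acetylcholine.

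The deposited values are raw counts of reads per gene. A library held 1662995 counts at the least, 3600161 at the median and 4256011 at the most. Levels are given as CPM, the count relative to the size of its library, with library sizes scaled by TMM factors over the 48 libraries, and 3 counts in 1 library equal 0.687 to 2.04 CPM. Over all libraries SLC6A2 had 1012 counts, SLC5A7 had 259, SLC6A15 had 166 and SLC6A5 had 80. Counts were not set against each other between genes, because transcript lengths were not used here. SLC6A2 was counted in every library, while SLC5A7 was at 0 in 1 library, SLC6A15 in 10 and SLC6A5 in 16. More than 3 counts were found in 43 libraries for SLC6A2, in 21 for SLC5A7, in 12 for SLC6A15 and in 7 for SLC6A5. The cell type label could not be checked, because 0 of 6 general leukocyte markers could be matched to an identifier. In mixed leukocytes, a change in the number of cells that carry a transcript and a change in its amount per cell cannot be told apart.

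In 4 of the 48 libraries, expression did not resemble that of the labelled calf most closely, judged on the 200 genes that best separated calves on the other days. The d 7 library labelled 1758 was most like calf 1770 (r = 0.66, against 0.32 for its own label), and the d 7 library labelled 1770 was most like calf 1758 (r = 0.54, against 0.25). Both are weaned calves, so a comparison of treatments on d 7 holds the same libraries whichever calf each came from. The libraries labelled 1755 on d 2 and 1758 on d 0 resembled no calf closely, with a highest r of 0.22 and 0.28, but resembled each other (r = 0.63). Calf 1755 is a control calf and calf 1758 a weaned calf. A wrong label here could therefore place a library in the wrong treatment, which was not tested. The other 44 libraries had a median r of 0.87 with their own calf. These 4 libraries are named below as labelled. Values without them are also given for some results of the transporters, and not for related genes.

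SLC6A2 had its highest mean in weaned calves on d 2, at 17.1 ± 29.5 CPM, and its lowest in control calves on d 7, at 2.65 ± 2.86 CPM (each SD, n = 6). Between these lay, in falling order, weaned calves on d 7 with 8.35 ± 3.86 CPM, control calves on d 2 with 7.57 ± 7.96 CPM, and weaned calves on d 1 with 5.07 ± 3.57 CPM. Weaned calves on d 0 had 3.997 ± 3.40 CPM, control calves on d 0 had 3.67 ± 2.89 CPM, and control calves on d 1 had 3.02 ± 0.787 CPM. No step in this order exceeded the spread, since the ranges of neighbouring groups overlapped throughout.

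On d 0, before housing, SLC6A2 counts in weaned calves ran from 2 through a median of 11.5 to 30, and in control calves from 3 through 11 to 32. On d 1 they ran from 7 through 17.5 to 41 in weaned and from 7 through 10 to 14 in control calves. The control libraries of d 1 were the most even of all, with a variance of 0.682 times that of counting noise, by chi-square over its degrees of freedom. On d 2 the counts ran from 8 through 19.5 to 180 in weaned and from 2 through 19 to 90 in control calves, so that the medians lay side by side and 1 library stood far above the rest in each treatment. The high weaned library was that of calf 1762 and the high control library that of calf 1789. By the same measure the variance in weaned calves was 144 times that of counting noise. On d 7 the counts ran from 15 through 28.5 to 47 in weaned and from 1 through 5 to 24 in control calves. Only the control library of calf 1802, with 24 counts, reached into the range of the weaned calves, as the plot of levels by calf and day shows.

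**Figure D1:**
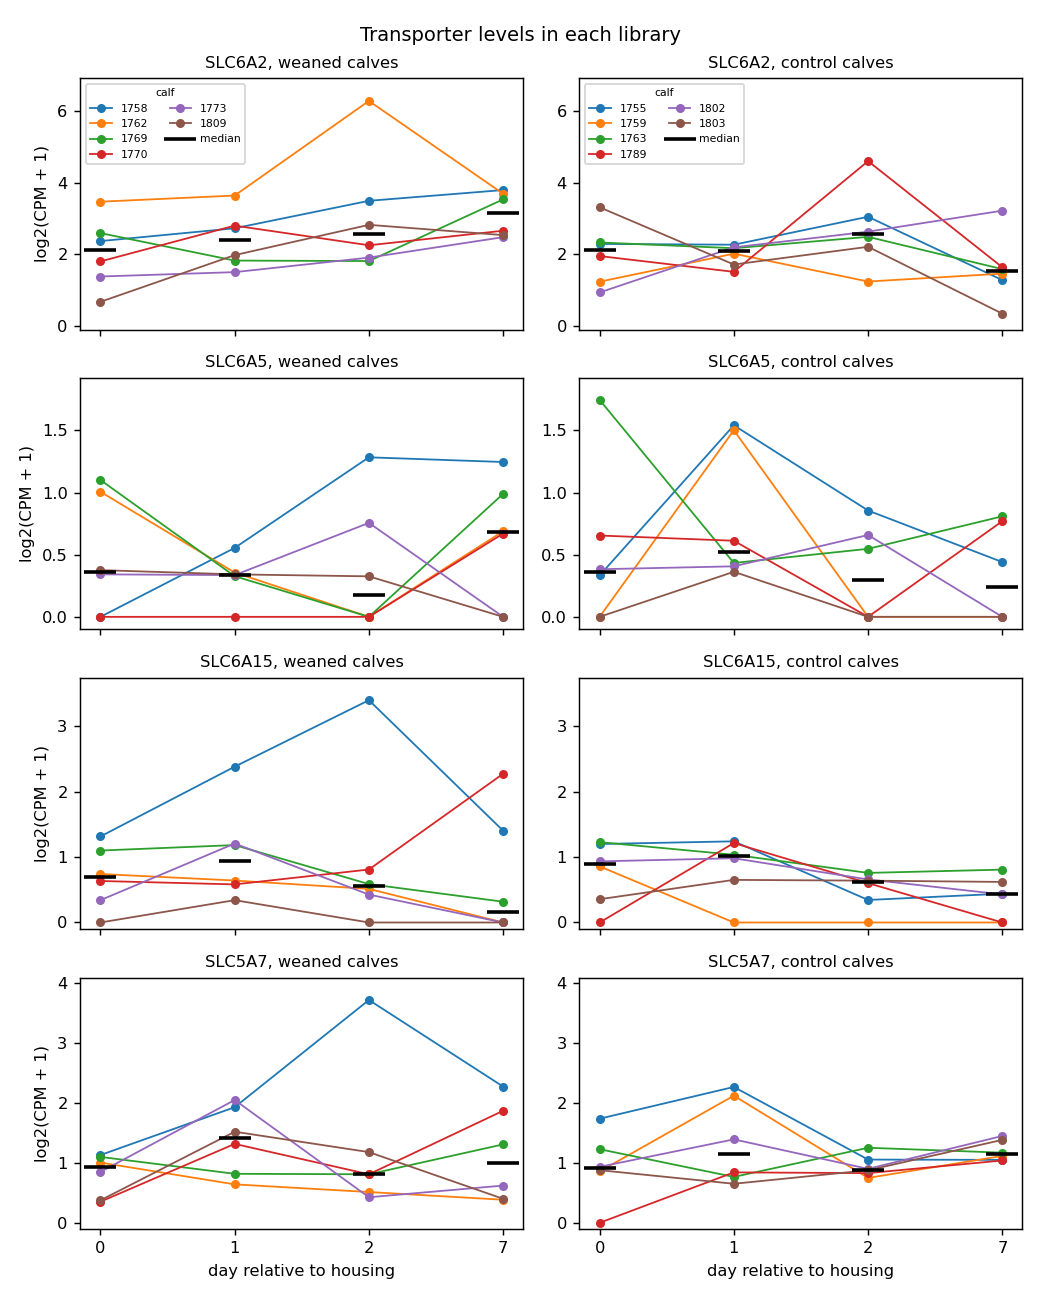
Level of each transporter as log2(CPM + 1) on the vertical axis against the day relative to housing (days drawn at equal spacing), with 1 line per calf, weaned calves on the left and control calves on the right, and a black bar at the median of 6 libraries. SLC6A2 peaked in calf 1762 on d 2 at 77.0 CPM, and SLC6A15 and SLC5A7 peaked in the library labelled 1758 on d 2 at 9.56 and 12.2 CPM.

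The d 7 difference between treatments in SLC6A2 kept its sign whichever calf was left out. Weaned calves had 179 counts in all and control calves 46, the log2 change was 1.64 (SE 0.52, edgeR quasi-likelihood test, unadjusted p = 0.0058, adjusted p = 0.158), and the exact two-sided permutation test of mean CPM gave p = 0.0281. It was 1 of 4 transporters with an unadjusted p under 0.05 on that day, when 25.5% of all 13932 genes were under that value and 0 genes (0%) were called, which here means an adjusted p under 0.05 with at least a 2-fold change. Leaving out single calves kept it between 1.38 and 2.46. Without calf 1809 it was 1.76 with an adjusted p of 0.0315, so that SLC6A2 was called, in a fit that called 1137 genes. Without the libraries labelled 1758 and 1770 it was 1.57 (SE 0.55, adjusted p = 0.573).

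Libraries of d 7 from both treatments shared a flowcell in 4 cases, and the weaned library was higher in each. These pairs leave out control calves 1789 and 1802, with 6 and 24 counts. They also leave out weaned calf 1809 and the library labelled 1770, with 15 and 18 counts. The counts were 47 in the library labelled 1758 against 4 in calf 1755, and 39 in calf 1762 against 3 in calf 1759. Calf 1769 had 43 against 8 in calf 1763, and calf 1773 had 17 against 1 in calf 1803. With flowcell as a covariate the log2 change was 2.89 (SE 0.54, adjusted p = 0.162). Such an estimate, on this and other days, rests only on flowcells that held both treatments that day, so here on the same 4 pairs.

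The d 2 difference of SLC6A2 was carried by calf 1762. The log2 change was 1.07 (SE 0.82, adjusted p = 0.95, exact permutation p = 0.647), and it was -0.63 without calf 1762 and 1.83 without control calf 1789. On 4 flowcells with 1 library of each treatment, the weaned library was higher in 1 case, calf 1762 with 180 counts against 2 in calf 1759. It was lower in calf 1769 with 10 against 20 in calf 1763, in calf 1770 with 15 against 90 in calf 1789, and in calf 1773 with 8 against 13 in calf 1803. With flowcell as a covariate the log2 change was -0.02. On d 0 the log2 change was 0.11 (SE 0.57) and on d 1 it was 0.74 (SE 0.42, adjusted p = 0.959), and 0.33 without calf 1762.

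Within weaned calves SLC6A2 was higher on d 7 than on d 0 in 6 of 6 calves, from 83 to 179 counts in the group. The log2 change was 1.06 (SE 0.49, edgeR unadjusted p = 0.0482, adjusted p = 0.92), and the exact permutation test of signs gave p = 0.0312, the smallest that 6 calves allow. With the d 7 libraries labelled 1758 and 1770 exchanged, the level was again higher on d 7 in 6 of 6 calves. With each calf left out the change lay between 0.92 and 1.41, and without the 3 libraries of uncertain calf it was 1.02 (SE 0.59). SLC6A2 was 1 of 4 transporters with an unadjusted p under 0.05 here, against 2.65% of all genes, and 0 genes (0%) were called.

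From d 0 to d 2 the log2 change of SLC6A2 in weaned calves was 2.06 (SE 0.86, edgeR unadjusted p = 0.0295, adjusted p = 0.944), with higher levels in 5 of 6 calves. Without calf 1762 it was 0.83, and with calf as a block it was 1.31 (SE 0.51, adjusted p = 0.96). Again 1 of 4 transporters had an unadjusted p under 0.05, against 2.11% of all genes, with 0 (0%) called. From d 0 to d 1 it was 0.35 (SE 0.54). In control calves the log2 change was -0.30 (SE 0.45) on d 1, 1.11 (SE 0.56) on d 2 and -0.46 (SE 0.58) on d 7. The d 2 value was 0.30 without calf 1789, and the d 7 value ran from -1.48 without calf 1802 to 0.30 without calf 1803.

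The change from d 0 to d 7 was larger in weaned than in control calves by 1.83 on the log2 scale (SE 0.78, interaction test in edgeR with calf as a block, unadjusted p = 0.0292, adjusted p = 0.11). At that unadjusted level stood 1 of 4 transporters and 35.8% of all genes, and 0 genes (0%) were called. The value was 1.70 (SE 0.80, adjusted p = 0.379) without the calves of uncertain libraries. The interactions of SLC6A2 on d 1 and d 2 were 0.57 (SE 0.56) and 0.44 (SE 0.78).

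SLC6A5 was close to the limit of detection in every group. Its group sums were 10, 6, 9 and 13 counts in weaned calves on d 0, 1, 2 and 7, and 11, 18, 7 and 6 counts in control calves. Means ran from 0.255 ± 0.149 CPM (SD, n = 6) in weaned calves on d 1 to 0.872 ± 0.778 CPM in control calves on the same day, and all neighbours in the order of the 8 groups overlapped. In only 7 of the 48 libraries did the count exceed 3, and the highest count was 7, in the libraries of calf 1755 on d 1 and calf 1763 on d 0.

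Its lower level in weaned calves on d 1 was the one difference of SLC6A5 at an unadjusted p under 0.05. Weaned libraries had 0 to 2 counts with a median of 1, and control libraries had 1 to 7 with a median of 1.5. The ranges overlapped, and the control sum rested on calves 1755 and 1759, which had 7 and 6 of its 18 counts. The log2 change was -1.66 (SE 0.67, edgeR unadjusted p = 0.0251, adjusted p = 0.959), and the exact permutation test gave p = 0.0476. With each calf left out it ran from -1.91 to -1.28. On that day 3.01% of all genes had an unadjusted p under 0.05, as did 1 of 4 transporters, and 0 genes (0%) were called. On 4 flowcells shared by both treatments the weaned library was higher in 0 cases, although in 2 of these pairs both libraries had 1 count.

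In the other comparisons of SLC6A5 the SE was as large as the change or nearly so. The log2 change between treatments was -0.20 (SE 0.92) on d 0, 0.24 (SE 0.95) on d 2 and 0.80 (SE 0.86) on d 7. The 9 counts of weaned calves on d 2 included 6 in the library labelled 1758, and the change was -0.83 without it. Relative to d 0, the log2 change in weaned calves was -0.78 (SE 0.78) on d 1, -0.15 (SE 0.94) on d 2 and 0.36 (SE 0.83) on d 7. In control calves it was 0.66 (SE 0.82), -0.60 (SE 0.94) and -0.63 (SE 0.94). The first of these was 0.071 without calf 1759 and 1.95 without calf 1763, which held 7 of the 11 counts on d 0. The interactions were -1.43 (SE 1.24) on d 1, 0.54 (SE 1.496) on d 2 and 1.15 (SE 1.22) on d 7.

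SLC5A7 had its highest mean in weaned calves on d 2, at 2.62 ± 4.70 CPM (SD, n = 6), followed by control calves on d 1 at 1.81 ± 1.43 CPM and weaned calves on d 1 at 1.77 ± 1.05 CPM. Next came weaned calves on d 7 at 1.52 ± 1.45 CPM, control calves on d 7 at 1.32 ± 0.288 CPM and control calves on d 0 at 1.04 ± 0.770 CPM. The lowest were control calves on d 2 at 0.938 ± 0.255 CPM and weaned calves on d 0 at 0.787 ± 0.410 CPM. The ranges of all neighbours overlapped. The top position rested on 1 library, for without it weaned calves on d 2 had 0.709 ± 0.363 CPM (SD, n = 5). This was below the mean of every other group over its 6 libraries. Weaned calves on d 0 had 0.706 CPM when their own top library was left out.

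On d 2 the SLC5A7 counts ran from 1 through a median of 3 to 51 in weaned calves and from 1 through 3 to 6 in control calves. The library labelled 1758 held 51 of the 64 counts in weaned calves, and no other library of either treatment on that day had more than 6. The log2 change was 1.43 (SE 0.78, edgeR adjusted p = 0.95, exact permutation p = 0.879), and it was -0.37 without calf 1758 and -0.65 with flowcell as a covariate. On the 4 shared flowcells, none of which held that library beside a control library, the weaned library was higher in 0 cases. Counts were equal there in calves 1762 and 1759, with 1 each, and in calves 1770 and 1789, with 3 each.

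The d 1 level of SLC5A7 in weaned calves was less tied to a single library. Weaned calves had 1 to 5 counts with a median of 3 on d 0, and 2 to 12 with a median of 6.5 on d 1. The log2 change was 1.13 (SE 0.49, edgeR unadjusted p = 0.0365, adjusted p = 0.423), the level was higher in 4 of 6 calves, and the exact permutation test gave p = 0.125. With each calf left out it stayed between 0.91 and 1.45, and without the library labelled 1758 on d 0 it was 1.28. This was 1 of 4 transporters at an unadjusted p under 0.05, against 10.4% of all genes, with 0 genes (0%) called. With calf as a block the change was 1.08 (SE 0.49, adjusted p = 0.192). In that fit 3520 of 14038 genes had an unadjusted p under 0.05, in place of 1456 without the block. It called 2 genes in place of 0, and SLC5A7 was not among them.

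Control calves, which were not weaned, showed a change of 0.77 (SE 0.62) in SLC5A7 over the same day, and the interaction was 0.33 (SE 0.71, adjusted p = 0.796). The difference between treatments was -0.38 (SE 0.58) on d 0 and -0.03 (SE 0.54) on d 1. In control calves the change from d 0 was -0.09 (SE 0.53) on d 2 and 0.36 (SE 0.52) on d 7. Later changes in weaned calves were 1.74 (SE 0.83) on d 2 and 0.92 (SE 0.62) on d 7. The d 2 value was 0.054 without calf 1758 and 1.05 (SE 0.68) with calf as a block. The d 7 value became -0.06 (SE 0.66) without the 3 libraries of uncertain calf, and the treatment difference on d 7 went from 0.19 (SE 0.56) to -0.93 (SE 0.56) without the libraries labelled 1758 and 1770.

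SLC6A15 also had its highest mean in weaned calves on d 2, at 1.93 ± 3.75 CPM (SD, n = 6), with weaned calves on d 1 next at 1.35 ± 1.47 CPM and weaned calves on d 7 following at 0.956 ± 1.55 CPM. Control calves had 0.881 ± 0.517 CPM on d 1, 0.775 ± 0.541 CPM on d 0, 0.436 ± 0.255 CPM on d 2 and 0.332 ± 0.297 CPM on d 7, and weaned calves had 0.688 ± 0.551 CPM on d 0. Neighbouring ranges overlapped throughout. In each of the 3 highest groups a single library held more than 50% of the counts.

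The counts of SLC6A15 on d 2 ran from 0 through a median of 1.5 to 40 in weaned calves and from 0 through 2 to 3 in control calves. Of 47 counts in weaned calves, 40 were in the library labelled 1758, and the median was lower than in control calves. The log2 change was 1.96 (SE 0.95, edgeR adjusted p = 0.95, exact permutation p = 0.584), and -0.23 without calf 1758. On d 2 an unadjusted p under 0.05 stood beside 0 of 4 transporters and 3.37% of all genes, and 0 genes (0%) were called.

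On d 1 the same calf held 18 of 33 counts of SLC6A15 in weaned calves, and the log2 change between treatments was 0.61 (SE 0.67) with and -0.19 without it. On d 7 the library labelled 1770 held 13 of 20 and that labelled 1758 held 6, which leaves 1 count in the other 4 weaned libraries. The log2 change on d 7 was 1.24 (SE 0.99) and was 0.03 without calf 1770. Compared with d 0, the log2 change in weaned calves was 0.95 (SE 0.69) on d 1, 1.49 (SE 0.96) on d 2 and 0.42 (SE 0.94) on d 7. Without calf 1758 the d 1 value was 0.49 and the d 2 value -0.39, and with calf as a block the d 2 and d 7 values were 0.81 (SE 0.67) and 0.038 (SE 0.98). Without a block, and without the 3 libraries of uncertain calf, the d 7 value was -2.48 (SE 1.08, adjusted p = 1). In control calves the changes from d 0 were 0.19 (SE 0.64), -0.61 (SE 0.62) and -0.92 (SE 0.72). The interactions were 0.68 (SE 0.83), 1.46 (SE 0.98) and 1.04 (SE 1.13), and those of d 2 and d 7 were -0.085 and -1.48 without the calves of uncertain libraries. Before housing the treatments differed by -0.13 (SE 0.67).

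**Figure D2:**
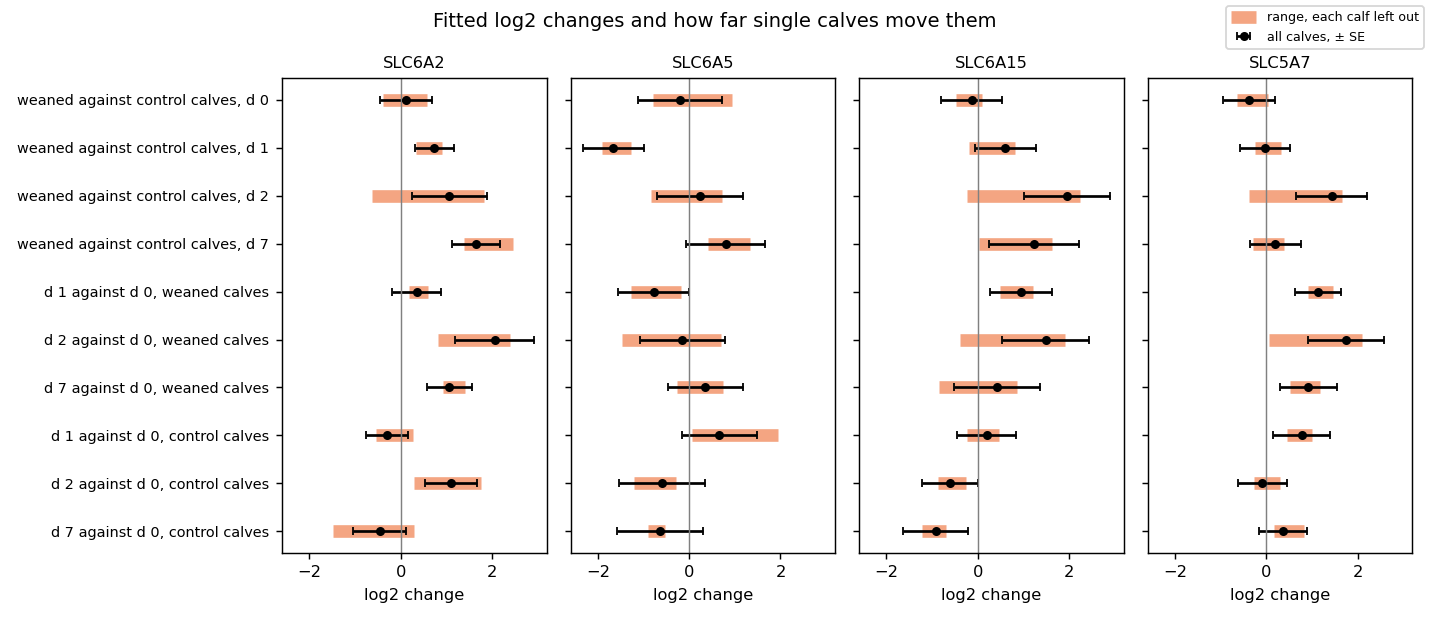
Fitted log2 change on the horizontal axis for each transporter in the 10 comparisons of 2 groups, with all calves (black points, bars are ± SE) and the range obtained when each calf is left out in turn (orange bars). The orange bars of SLC6A2, SLC6A15 and SLC5A7 for weaned against control calves on d 2 cross 0, and that of SLC6A2 on d 7 runs from 1.38 to 2.46.

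Across the 13 comparisons, the quasi-likelihood test called 0 of 4 transporters in any. With DESeq2 0 were called as well, although it called 26 genes between treatments on d 7, 1 gene from d 0 to each of d 1 and d 7 in weaned calves, 617 genes from d 0 to d 7 in control calves, and 5 and 923 genes by the interactions on d 1 and d 7. By contrast, edgeR's exact test with a common dispersion called SLC6A2 and SLC6A15 between treatments on d 2, SLC6A2 between treatments on d 7, and SLC6A2 and SLC5A7 from d 0 to d 2 in weaned calves. That test gives every gene the same spread, and called 75, 865 and 62 genes in these comparisons. On d 2 between treatments the common coefficient of variation was 0.295, whereas the gene's own value was 0.925 for SLC6A2, 1.02 for SLC6A15 and 0.849 for SLC5A7. Before housing, the unadjusted p was under 0.05 in 0 of 4 transporters and 6.23% of all genes, with 0 (0%) called.

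In control calves the unadjusted p was under 0.05 in 0 of 4 transporters from d 0 to d 1, to d 2 and to d 7, against 0.768%, 5.09% and 40.1% of all genes. From d 0 to d 7 in control calves 516 of 13829 genes (3.73%) were called, and 0 of the 4 transporters. On d 1 and d 2 in control calves 0 genes (0%) were called. The interactions on d 1 and d 2 gave 0 of 4 at an unadjusted p under 0.05, against 22.3% and 7.2% of all genes, and 0 called (0%). Of 40 exact permutation tests over the 10 comparisons of 2 groups, 3 gave p under 0.05 without adjustment for the number of tests, and in 0 of the 40 were the ranges of the groups apart. Neither measure was taken over all genes, so these counts cannot be set against those of other genes and are given as a description.

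Single libraries held a large part of the counts. Over all 48 libraries, calf 1762 on d 2 held 17.8% of the SLC6A2 counts (95% exact binomial interval 15.5% to 20.3%, counting error only). The library labelled 1758 on d 2 held 24.1% of the SLC6A15 counts (17.8% to 31.3%) and 19.7% of the SLC5A7 counts (15.0% to 25.1%). The largest share of SLC6A5 was 8.75% (3.59% to 17.2%), and an even spread over 48 libraries would give 2.08% each. Over all genes with at least 10 counts, the median of this largest share was 4.47%, and shares as large were found in 3.24% of genes for SLC6A2, 0.882% for SLC6A15, 2.31% for SLC5A7 and 17.2% for SLC6A5. The most abundant 8 libraries were enough for 50% of the SLC6A2 and of the SLC5A7 counts, 6 for SLC6A15 and 7 for SLC6A5.

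Within weaned calves on d 2, the top library held 64.3% of the SLC6A2 counts, 79.7% of the SLC5A7 counts and 85.1% of the SLC6A15 counts. In that group the median gene had 26.0% in its top library, and 5.75% of genes had at least 50% there. Shares of this size or larger were held by 0.889% of genes for SLC6A2, 0.249% for SLC5A7 and 0.173% for SLC6A15. In control calves on d 2 the top share of SLC6A2 was 52.9%, whereas that of SLC5A7 and of SLC6A15 was 30.0% each. On d 7 the top share of SLC6A2 in weaned calves was 26.3%, near the median gene at 24.03%, and in control calves it was 52.2%.

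**Figure D3:**
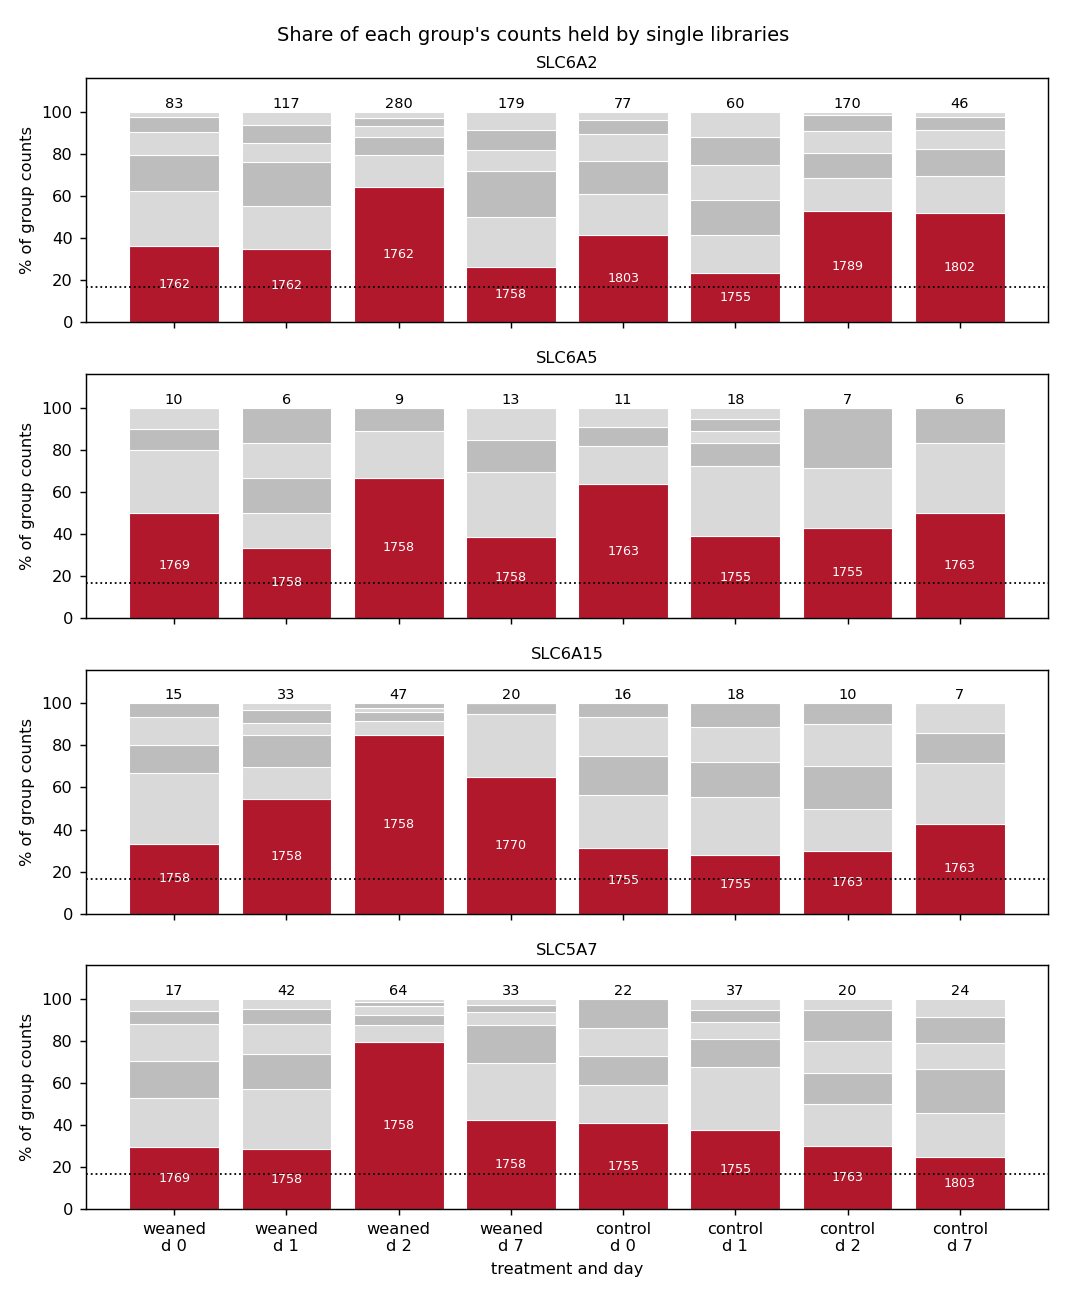
Percent of the counts of each group that came from each of its 6 libraries, for the 4 transporters, with the library that held the most in red and named by calf, the other 5 in grey, the counts of the group above each bar, and a dotted line at the even share of 16.7%. The red share reached 85.1% for SLC6A15 and 79.7% for SLC5A7 in weaned calves on d 2.

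Over all 4 days, calf 1762 had 290 of the 1012 SLC6A2 counts (28.7%), the library label 1758 came next with 128, and calf 1759 had the fewest with 20. Calf 1762 was the highest of the weaned calves in SLC6A2 on d 0 and d 1 too, with 30 and 41 counts, but on d 7 it had 39 against 47 in the library labelled 1758. The label 1758 had 69 of 166 SLC6A15 counts (41.6%) and 81 of 259 SLC5A7 counts (31.3%). In SLC6A5 the label 1758 and calf 1763 had 13 counts each of 80 (16.2%).

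SLC6A15 and SLC5A7 had their peak in the same library, and their levels were alike over the 48 libraries, with Pearson's r of 0.69 and Spearman's rho of 0.45 for log2(CPM + 1). Without the library labelled 1758 on d 2 Pearson's r was 0.52, and without all 4 libraries with that label it was 0.43. SLC6A5 and SLC5A7 had r of 0.48, and SLC6A5 and SLC6A15 had 0.32. SLC6A2 stood apart, with r between 0.10 and 0.13 with the other 3 transporters. These correlations share the libraries and their depth, include 4 libraries from each calf and are given as a description.

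**Figure D4:**
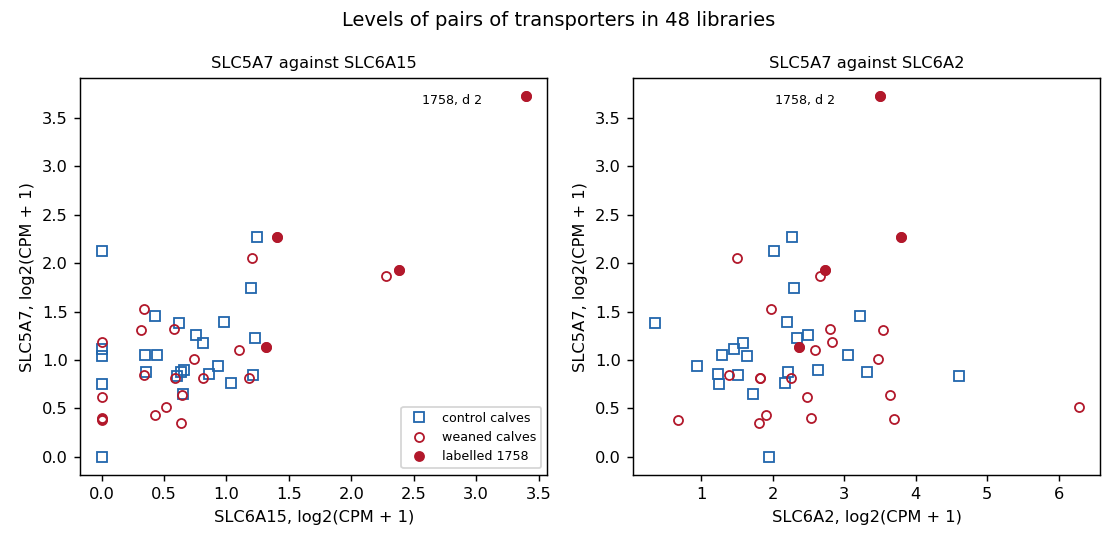
SLC5A7 against SLC6A15 (left) and against SLC6A2 (right), both axes as log2(CPM + 1), with 1 point per library for weaned calves (circles) and control calves (squares), and filled circles for the 4 libraries labelled 1758. The library labelled 1758 on d 2 lies at the upper right on the left, where Pearson's r over 48 libraries was 0.69, and on the right r was 0.10.

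Some measures of library quality are set beside these levels here. Their association with the levels over the libraries was not computed, and their part in the results was not tested. On d 7, when mean SLC6A2 was 8.35 CPM in weaned and 2.65 CPM in control calves, the median number of genes with at least 1 count was 14296.5 and 13815.5. The library labelled 1758 on d 2 had the highest total of all, 4256011 counts, and the second highest number of genes with at least 1 count, 14905 against a median of 14108. The library labelled 1758 on d 7 had the highest number, 14950. Calf 1762 on d 2, which held the SLC6A2 peak, had 2605496 counts and 13341 genes, ranks 46 of 48 on both measures.

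All 6 markers of fibroblasts and stroma were matched (COL1A1, COL1A2, COL3A1, DCN, LUM and PDGFRB), with COL1A1 the most abundant. Their summed level had a median of 30.0 CPM over the 48 libraries. In weaned calves its median was 147 CPM on d 0 and 8.17 CPM on d 7, and in control calves it was 28.6 and 30.0 CPM. It was 7.70 CPM in calf 1762 on d 2 and 0 in the library labelled 1758 on d 2, where all 6 were at 0. In control calves the library with the most SLC6A2 also had the highest sum of its group on d 2 and d 7, with 237.6 CPM in calf 1789 and 244.0 CPM in calf 1802, of which COL1A1 had 492 and 508 counts. On d 0 and d 1 this was not so, for the control libraries with the most SLC6A2, calf 1803 and calf 1755, had sums of 8.67 and 0 CPM in groups that reached 133.7 and 188.6 CPM. Of 10 markers of neurons and chromaffin cells only SNAP25 was matched, with 69 counts in all libraries, 0 in calf 1762 on d 2 and 2 in the library labelled 1758 on d 2.

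The genes whose levels were most like each transporter, by Pearson's r of log2(CPM + 1) over 48 libraries among 13732 genes, mostly had no symbol in the sources used here. For SLC6A2 they were led by ENSBTAG00000019272 (r = 0.82) and ENSBTAG00000031950 (r = 0.80), and the fifth was TIAM2 (r = 0.76), which encodes an exchange factor for the GTPase Rac. For SLC6A5 they were led by ENSBTAG00000002134 (r = 0.69), followed by GPR83 (r = 0.64), a G-protein-coupled receptor, and PLA2G10 (r = 0.64), a secreted phospholipase. For SLC6A15 the first was ENSBTAG00000015565 (r = 0.70) and the second SLC5A7. For SLC5A7 the first was ENSBTAG00000011516 (r = 0.77), and ENSBTAG00000015565 was second (r = 0.77).

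Related genes were taken from lists of the SLC5 and SLC6 families, of genes that handle or receive noradrenaline, acetylcholine and glycine, and of other neutral amino acid transporters. Of 110 symbols 18 could be matched, of which 14 were other than the 4 transporters. The symbols came from the study's own lists of changed genes, so the directions of these genes are not independent evidence. Between treatments, 0 of 12 tested had an unadjusted p under 0.05 on d 0, 1 of 12 on d 1 (lower in weaned calves), 3 of 12 on d 2 (1 higher and 2 lower) and 5 of the same 12 on d 7 (4 higher and 1 lower). Over all genes tested the shares on these days were 6.23%, 3.01%, 3.37% and 25.5%. The median log2 change of these 12 on d 7 was 0.18, against 0.03 over all genes tested. Between treatments CHRM1 and CHRNB4 were tested on d 7 alone, which they entered through their counts in control calves, and are left out of these numbers. No gene of the lists was called, and their smallest adjusted p in the 13 comparisons was 0.0513. It belonged to CHRNG, a nicotinic receptor subunit, which had 13 counts on d 0 and 43 on d 7 in control calves (log2 change 1.88, SE 0.65, edgeR). In that comparison 516 of all 13829 genes (3.73%) were called and 40.1% had an unadjusted p under 0.05. Of the 14 listed genes tested there, 0 were called and 5 had an unadjusted p under 0.05, CHRM1 among them. CHRM1 and CHRNB4 passed the count minimum there through d 7, with 12 counts each, against 2 and 3 on d 0. The number under 0.05 therefore cannot be set against the share over all genes. In every other comparison 0 genes (0%) were called.

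Among receptors for noradrenaline and adrenaline, ADRB3 had 461 counts in weaned calves on d 7, of which calf 1809 held 319, and a log2 change of 0.74 (SE 0.68). On d 1 and d 2 its log2 change was negative, -1.21 (SE 0.44) and -1.18 (SE 0.31), with edgeR adjusted p = 0.959 and 0.95. ADRB1 had 63 counts on d 7 with weaning and 89 without, and its log2 change was -0.72 (SE 0.34, edgeR adjusted p = 0.191) on d 7 and -1.09 (SE 0.36, adjusted p = 0.95) on d 2. In noradrenaline handling, SLC29A4, a transporter of monoamines, had 120 counts in control calves on d 7 with 91 in calf 1755, and a log2 change of -1.34 (SE 1.05). DDC, which makes dopamine from its precursor, had 19 counts with weaning and 4 without, and its log2 change was 1.81 (SE 0.67, adjusted p = 0.158).

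Of the genes around acetylcholine, ACHE, which breaks it down, had 57 counts on d 7 with weaning and 69 without, and its log2 change was -0.50 (SE 0.68). The nicotinic receptor subunit CHRNA2 had 41 against 15, where the log2 change was 1.14 (SE 0.50, edgeR adjusted p = 0.177). The muscarinic receptor CHRM1 had 1 count with weaning and 12 without, 8 of them in calf 1802, and the nicotinic subunit CHRNB4 had 2 and 12, 6 of them in calf 1789. DLD, a subunit of the glycine cleavage system and of other dehydrogenase complexes, stood at 29.2 ± 20.8 CPM with weaning and 14.1 ± 6.41 CPM without (each SD, n = 6), where the log2 change was 1.02 (SE 0.39, edgeR adjusted p = 0.161). Its highest count, 255, was in the library labelled 1758.

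Of the other members of these families, the betaine and GABA transporter SLC6A12 had 16 counts on d 7 with weaning and 29 without, where the log2 change was -1.17 (SE 0.56, edgeR adjusted p = 0.196). SLC5A11, a sodium-coupled inositol transporter, had 18 counts against 4, with 11 of the 18 in the library labelled 1758. SLC16A10, a carrier of aromatic amino acids, had 98 against 36, with 45 in that same library, and its log2 change was 1.22 (SE 0.50, adjusted p = 0.17). SLC5A11, SLC16A10, DLD and CHRNA2 had their highest weaned count of d 7 in the library labelled 1758, as SLC6A2, SLC6A5 and SLC5A7 did. Other genes had theirs elsewhere, among them DDC and ACHE in calf 1773 and ADRB1 and SLC6A12 in calf 1769. For ADRB3 it was in calf 1809, for CHRNG in calf 1762, and for SLC29A4 and SLC6A15 in the library labelled 1770. How many of all genes peaked in the library labelled 1758 was not counted.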

How the data were processed

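The table deposited by the authors holds unnormalised read counts for Ensembl genes. The authors mapped the reads of 48 libraries to Btau4.0 in Bowtie 0.12.7, allowed no mismatch, dropped reads that mapped to several places, kept 1 read at each genomic position, and assigned reads to genes with HTSeq 0.4.6p2. Keeping 1 read per position lowers the counts of abundant genes. A strand setting is not given in the sources used here.

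Counts were compared with edgeR 4.0.16 (TMM, quasi-likelihood F-test) in R 4.3.3, for genes with at least 10 counts over the libraries compared, and p-values were adjusted by Benjamini-Hochberg over all genes tested. A call required an adjusted p under 0.05 together with a 2-fold or larger change. Interactions had calf as a block over 24 libraries, whereas comparisons of days within a treatment had none, so their SE and the shares of genes leave the pairing out. Libraries of a calf were paired by its label, and the correlation across genes of its deviations from the group means on d 0 and the later day had a mean of 0.22 to 0.49. Exact two-sided permutation tests exchanged calf labels or signs. Replicates are separate calves.

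Alternatives were RLE size factors, DESeq2 1.42.0, no filter, filterByExpr, robust fitting, an exact test in edgeR that gives all genes a common dispersion, 1 fit of all libraries, flowcell, calf as replicate block, and leaving out each calf, with the libraries of uncertain calf left out as an alternative added after the data were seen. On simulated data, 100% of 200 genes changed 4-fold were called between treatments on d 2 (13808 genes, 4 false calls) and 93.5% by the interaction on d 7 (14565 genes, 10 false calls). The simulation gave every gene the same spread and drew the changed genes from those above a higher count minimum. Between treatments on d 2 that spread was smaller than the own spread of each transporter. These rates thus do not show how often such a change would be called in the transporters.

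The transporters and the gene lists were chosen with earlier results of these data known. The rule for named genes took the 4 transporters, listed genes that passed the test or were the most abundant 2 of a list, and the 5 genes most like each transporter. Further genes singled out were picked once values had been inspected. Gene symbols were read from the study's supplementary tables, which paired 644 identifiers. Coordinates and sequences were not used here, and 1 listed gene is not reported by name. Python 3.11.15 with numpy 2.4.6, pandas 2.3.3, scipy 1.17.1 and matplotlib 3.10.9 served for the rest.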

Additional observations from a re-analysis of the deposited data

Results flagged for a closer look

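In 7 of 32 combinations of transporter and group, 1 of the 6 libraries lay far from the others by Dixon's test, where chance gives about 1 in 20 for normally distributed values. The rate for low and skewed counts such as these was not measured, so the 7 cannot be read as an excess. SLC6A2 stood out at 77.0 CPM in weaned calf 1762 on d 2, at 23.3 CPM in control calf 1789 on d 2 and at 8.32 CPM in control calf 1802 on d 7. SLC6A5 stood out at 2.35 CPM in control calf 1763 on d 0, which is 7 counts. SLC6A15 stood out in the libraries labelled 1758, at 4.22 CPM on d 1 and 9.56 CPM on d 2, and SLC5A7 in that of d 2, at 12.2 CPM. All 7 were the highest of their group.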

How the results depend on the processing

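The count of transporters called was 0 in all 13 comparisons and stayed at 0 under RLE size factors, DESeq2, no filter and filterByExpr. It was also 0 in the 10 comparisons of 2 groups under the robust fit and 1 fit of all libraries, in the 4 between treatments with flowcell as a covariate, and in the 10 that held libraries of uncertain calf, without these libraries or, for interactions, these calves. With a common dispersion, the exact test, run on the 10 comparisons of 2 groups, called 2 between treatments on d 2, 1 between treatments on d 7 and 2 from d 0 to d 2 in weaned calves. With each calf left out, the count was 0 to 1 between treatments on d 7 and 0 in the other 9 comparisons of 2 groups, and this was not run for the interactions. Calf as replicate block left it at 0 in the 6 comparisons within a treatment, as did the interactions with no replicate block. The replicate block raised the genes at an unadjusted p under 0.05 from d 0 to d 1 from 1456 to 3520 in weaned and from 107 to 419 in control calves, and from d 0 to d 2 in control calves from 705 to 1283. Of the changes that altered their sign, SLC5A7 between treatments was 0.38 on d 1 and -0.65 on d 2 with flowcell, SLC6A2 was -0.019 on d 2 and SLC6A15 was -0.23 on d 7. Without libraries of uncertain calf, SLC6A5 between treatments was 0.012 on d 0 and SLC5A7 was -0.93 on d 7. From d 0 to d 7 in weaned calves, SLC6A5 was then -0.38, SLC6A15 was -2.48 and SLC5A7 was -0.055. The interactions then were -0.085 and -1.48 for SLC6A15, and -0.22 and -0.67 for SLC5A7, on d 2 and d 7. With DESeq2 the interaction of SLC6A5 on d 2 was -0.15. SLC6A15 between treatments on d 7 could not be fitted without these libraries, being under the count minimum. The filterByExpr setting removed SLC6A5 and SLC6A15 in every comparison and SLC5A7 in all but the interaction on d 1. It also removed SLC6A2 from d 0 to d 7 in control calves, where no transporter was left to test. Its count thus speaks mainly of SLC6A2 in the other comparisons. The cause of these reversals was not tested.

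With each calf left out, the log2 change between treatments on d 0 ranged from -0.39 to 0.59 for SLC6A2, -0.79 to 0.93 for SLC6A5, -0.48 to 0.10 for SLC6A15 and -0.65 to 0.029 for SLC5A7. On d 1 it ranged from -0.19 to 0.82 for SLC6A15 and -0.26 to 0.33 for SLC5A7. On d 2 it ranged from -0.63 to 1.83 for SLC6A2, -0.83 to 0.72 for SLC6A5, -0.23 to 2.25 for SLC6A15 and -0.37 to 1.67 for SLC5A7, and on d 7 from -0.30 to 0.39 for SLC5A7. In weaned calves SLC6A5 ranged from -1.46 to 0.70 on d 2 and -0.27 to 0.74 on d 7, and SLC6A15 from -0.39 to 1.92 and from -0.86 to 0.86. In control calves SLC6A2 ranged from -0.55 to 0.27 on d 1 and -1.48 to 0.30 on d 7, SLC6A15 from -0.23 to 0.46 on d 1 and SLC5A7 from -0.27 to 0.30 on d 2. Of the 5 genes most like each transporter, a pseudocount of 0.25 kept 3 to 4 and Spearman correlation 1 to 2. By summed CPM, the largest share of SLC6A2 was 24.98%. At these counts, most changes of SLC6A5 and SLC6A15 were smaller than could be told from the spread between calves.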
